A study of Mus musculus with 18 samples.

Results

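Antiviral effector genes encode proteins that act directly against viruses inside the cell, and most of them are silent or low until interferon or a related cytokine signals. The genes described here are 10 listed by symbol: Ifit1, Ifit2, Ifit3, Rsad2, Mx1, Rtp4, Bst2, Plscr1, Ifi35 and Ifi44. All probe sets annotated to one of these symbols alone were taken, which gave 16 probe sets for 9 of the 10 genes, out of 18193 genes with such a probe set on the array. Ifi44 had none and was not analysed here. All 9 genes passed the filter on low signals and were among the 11971 genes tested, but Mx1 passed it through 3 arrays of cytokine-treated STAT3-deficient cells and Plscr1 through the 3 arrays of IL-6-treated wild type cells.

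RNA came from mouse naive CD4 T cells of spleen and lymph nodes, sorted on the surface markers CD4, CD44, CD62L and CD25, on the C57BL/6J background. Wild type (WT) cells carried no named allele, and STAT3-deficient cells carried Cd4-Cre with the allele STAT3 tm1Dlv, in which the Cre made under the Cd4 promoter removes Stat3 in T cells and leaves it in other cell types. For 3 hours, cells of either genotype received no cytokine (medium), 20 ng/ml of interleukin 6 (IL-6) or 20 ng/ml of interleukin 27 (IL-27). The 6 groups hold 3 arrays each, called biological triplicates in the series; whether mice were pooled is not stated, and the p-values below measure the spread between these samples. The comparison addresses how the cytokines act on these cells and what STAT proteins contribute.

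As background, IL-6 and IL-27 share the receptor chain gp130 and activate STAT3 in T cells. Type I interferon assembles the complex ISGF3, which includes STAT2 and IRF9 and binds a DNA element called the interferon-stimulated response element (ISRE), and STAT3 homodimers bind a different, palindromic STAT site. The IFIT proteins bind viral RNA and block its translation, and the other proteins here act on viral synthesis, budding or cell signalling. IFIT genes lie side by side in the genome: in the RefSeq gene order of GRCm38.p6, Ifit2 and Ifit3 are direct neighbours on chromosome 19, and Ifit1 follows after 3 related genes, Ifit1bl1, Ifit3b and Ifit1bl2. Ifit3b is a near-identical copy of Ifit3, so the signal annotated to Ifit3 may include it.

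Promoters are shown because the ISRE is the element through which interferon signals reach such genes. RefSeq promoters of GRCm38.p6, each with 250 bases before the transcription start and 50 after, were found for 8 of the 10 genes (9 promoters, since Ifit2 has 2), while Rtp4 and Mx1 had no entry. The letters GAAANNGAA, the core of the ISRE, were searched on both strands and stood in 5 of the 9 promoters, those of Ifit1, Ifit3, Rsad2, Bst2 and Ifi44, against 8.56% of all 32851 promoters in the table. The letters TTCNNNGAA, a STAT site, stood in 4 of the 9, one promoter of Ifit2 and those of Bst2, Plscr1 and Ifi35, against 8.30% of all. In Bst2 the match to the STAT site overlaps a match to the ISRE core. A match describes letters and not binding. Below are the 250 bases before the start, on the strand of the gene, with the ISRE core matches in capitals (in Ifit1, Ifit3 and Rsad2 the motif is read on the other strand), for Ifit1 (chr19:34640639-34640888, plus strand, 3 matches, 2 of them overlapping), Ifit3 (chr19:34583279-34583528, plus strand, 3 matches), Rsad2 (chr12:26456453-26456702, minus strand, 1 match) and Bst2 (chr8:71537473-71537722, minus strand, 2 overlapping matches).
Ifit1: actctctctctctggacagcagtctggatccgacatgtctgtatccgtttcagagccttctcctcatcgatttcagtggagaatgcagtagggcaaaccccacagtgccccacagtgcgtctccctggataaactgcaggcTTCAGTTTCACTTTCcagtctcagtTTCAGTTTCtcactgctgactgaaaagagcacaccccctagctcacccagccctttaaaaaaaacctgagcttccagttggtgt
Ifit3: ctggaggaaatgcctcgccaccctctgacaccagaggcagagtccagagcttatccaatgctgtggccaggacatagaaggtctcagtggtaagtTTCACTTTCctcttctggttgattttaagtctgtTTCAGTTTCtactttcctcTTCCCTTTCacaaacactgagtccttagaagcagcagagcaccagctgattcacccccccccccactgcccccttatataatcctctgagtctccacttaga
Rsad2: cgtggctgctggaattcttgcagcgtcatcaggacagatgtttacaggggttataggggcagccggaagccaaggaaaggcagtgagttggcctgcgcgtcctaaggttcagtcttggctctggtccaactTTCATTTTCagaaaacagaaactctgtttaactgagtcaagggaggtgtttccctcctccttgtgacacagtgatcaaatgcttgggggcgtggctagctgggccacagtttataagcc
Bst2: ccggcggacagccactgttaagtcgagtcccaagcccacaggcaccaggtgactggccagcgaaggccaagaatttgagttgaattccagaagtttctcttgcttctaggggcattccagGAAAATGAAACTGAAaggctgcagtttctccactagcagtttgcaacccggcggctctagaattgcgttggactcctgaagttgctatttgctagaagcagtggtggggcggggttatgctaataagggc

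Array medians of the deposited signal lay between 104.4 and 190.3, lower in all 9 WT arrays than in all 9 STAT3-deficient arrays. The Stat3 probe set with the highest mean read 2361.4 to 3101.4 in WT cells in medium and 1109.7 to 1264.7 in STAT3-deficient cells in medium. In STAT3-deficient cells this set read 2123.8 to 2540.4 with IL-6 and 3173.5 to 4637.8 with IL-27, above the WT arrays in medium in the latter case, against 9768.7 to 11002.1 and 7723.9 to 9260 in WT cells, so "STAT3-deficient" names the genotype and not an absence of signal. Of the 3 other Stat3 probe sets, 1426587_a_at was lower in STAT3-deficient cells in medium, at 1021.2 to 1108.5 against 1833.4 to 2384.5. Another, 1424272_at, was higher, at 382.3 to 568.7 against 202.8 to 223.7, and 1459961_a_at overlapped. No source used here states which of these sets read the deleted stretch. All 7 measured naive CD4 T cell markers lay above the array median in every group, and summed to 113662.3 to 122430.3 in WT and 93759 to 103423 in STAT3-deficient cells in medium. In WT cells 5 of the 7 were called lower with IL-6 and 4 with IL-27, and in STAT3-deficient cells 0 and 3. Deposited signals of markers of 3 other kinds of cell summed higher in the STAT3-deficient arrays, whose array medians were higher too. Of 8 B cell markers 7 were measured and summed to 1225.8 to 2073.9 against 477.4 to 773.1 in WT arrays. All 12 myeloid markers summed to 3359.6 to 8193.2 against 662.9 to 1058. The 7 markers of plasmacytoid dendritic cells, which make type I interferon and carry Bst2 on their surface, summed to 1878.6 to 2889.2 against 1165.1 to 1705.3. After normalisation, 4 of 5 tested B cell markers were called higher in STAT3-deficient than in WT cells in medium. Of 10 tested myeloid markers 6 were higher and 1 lower there, and of 7 plasmacytoid dendritic cell markers 2 were higher. With IL-6 the 3 lists had 4, 4 and 2 called higher, and with IL-27 2, 4 and 1. Over all genes, the share called higher in STAT3-deficient cells was 13.8% in medium, 12.8% with IL-6 and 9.62% with IL-27. In medium 12.9% of all genes were called lower. Of the defining B cell markers, Cd79b read at most 55.2 in WT arrays and at least 150.3 in STAT3-deficient arrays. Cd79a overlapped, at most 121.8 in WT and at least 121 in STAT3-deficient arrays. Of the defining myeloid markers, Lyz1 and Lyz2 were higher in STAT3-deficient cells in medium without overlap. Cd68 was not, at 101.6 to 120.7 against 116.1 to 174.1 in WT cells. None of these 3 marker lists had a gene called for either cytokine against medium in either genotype. The CD8 T and NK cell markers, 6 of 7 measured, went the other way and summed in medium to 2675.6 to 3182.8 in WT and 1984.2 to 2158.1 in STAT3-deficient cells, with 2 of the 4 tested called lower, Cd8b1 and Klrd1. With IL-6 in WT cells 1 of these 4 was higher, Gzma, and 1 lower, Klrd1. The part of these markers in the differences below was not tested. Differences between genotypes also depend on scaling: the median over all genes for STAT3-deficient against WT cells in medium was 0.03 with quantile normalisation, 0.14 with the deposited scaling and -0.40 with array medians set equal.

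Changes below are differences of log2(signal + 32) after quantile normalisation, each with its standard error (SE) from limma, at 3 arrays per group. The threshold for a call was an adjusted p below 0.05 (Benjamini-Hochberg over the 11971 genes of each comparison). Signals are as deposited and are listed in the order of the array numbers, and statements on overlap refer to the normalised values. Comparisons within a genotype share their medium, IL-6 or IL-27 arrays and are therefore not independent. Those between genotypes, and of the responses between genotypes, reuse the same arrays and are not independent either. In these bulk samples a difference in the share of responding cells and one in RNA per cell cannot be told apart.

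**Figure D1:**
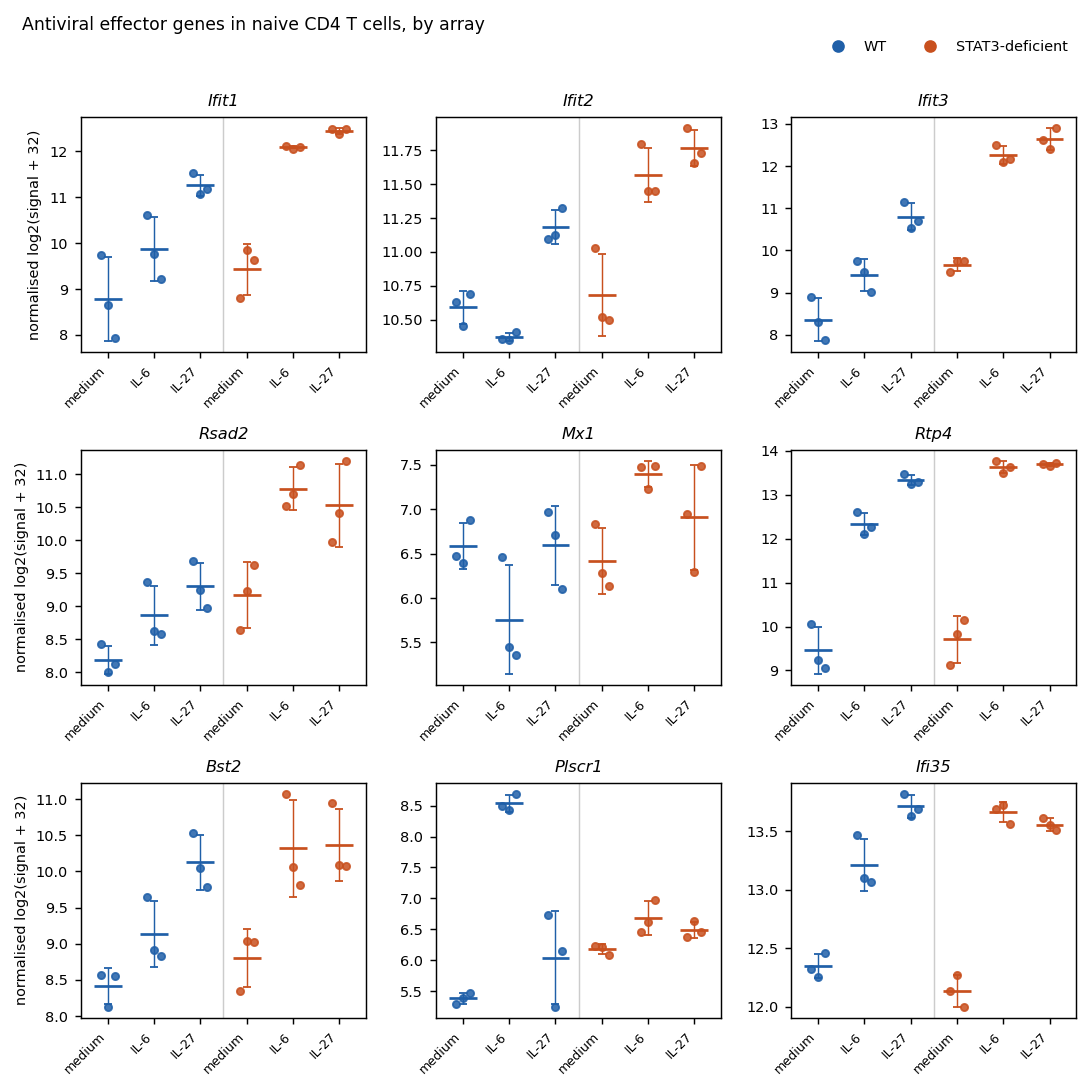
Normalised log2(signal + 32) of the 9 measured genes in the 6 groups, WT in blue and STAT3-deficient in orange; each point is 1 array, horizontal lines are group means, error bars are SD (n = 3), and each panel has its own scale. In 8 of the 9 panels the IL-6 mean is higher in STAT3-deficient than in WT cells, and Plscr1 is the exception.

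In WT cells, IL-27 raised 7 of the 9 genes and IL-6 raised 4. The 7 raised by IL-27 were Ifit1, Ifit2, Ifit3, Rsad2, Rtp4, Bst2 and Ifi35, against a background of 2.71% of all genes called higher, and the 4 raised by IL-6 were Ifit3, Rtp4, Plscr1 and Ifi35, against 3.67%. Without adjustment, limma gave a p under 0.05 for 7 genes with IL-27 and for 8 with IL-6, where Mx1 was lower. The median change of the 9 genes was 1.37 with IL-27 and 0.87 with IL-6, while the median over all genes was -0.04 and -0.02. Directly compared, IL-27 gave higher values than IL-6 for Ifit1, Ifit2, Ifit3, Rtp4 and Ifi35 (5 genes, background 1.77% higher) and a lower value for Plscr1 (1 gene, background 1.37% lower). Rsad2 and Bst2, called for IL-27 and not for IL-6, were not called in this direct comparison (adjusted p = 0.715 and 0.126). Plscr1 was tested only because the WT IL-6 arrays passed the filter, so its calls with those arrays add nothing to these counts.

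In STAT3-deficient cells, each cytokine raised 7 of the 9 genes, Ifit1, Ifit2, Ifit3, Rsad2, Rtp4, Bst2 and Ifi35, against a background of 1.69% of all genes higher with IL-6 and 3.27% with IL-27. The median change was 1.53 with IL-6 and 1.42 with IL-27. None of the 9 genes was called between IL-27 and IL-6 in these cells, where 0.393% of all genes were called in either direction; limma gave no unadjusted p under 0.05 for any of the 9. Their differences ranged from -0.49 for Mx1 to 0.38 for Ifit3.

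**Figure D2:**
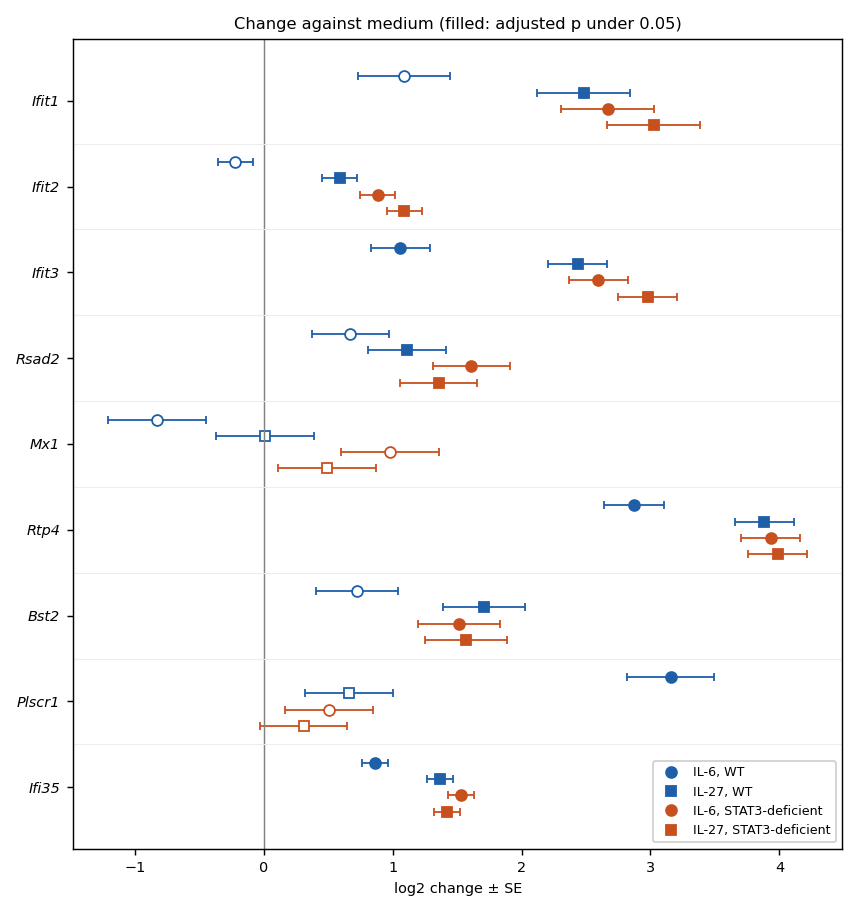
Change against medium in log2 units, with SE, for IL-6 (circles) and IL-27 (squares) in WT (blue) and STAT3-deficient cells (orange); filled symbols have an adjusted p under 0.05. IL-6 in WT cells is the lowest of the 4 changes for 8 of the 9 genes and the highest for Plscr1.

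Ifit1 encodes a protein that binds viral RNA by its 5′ end. Its signal was 844.7, 352.6 and 190.7 in WT cells in medium, 1560.3, 820.4 and 549.1 with IL-6, and 3076.2, 2173.8 and 2346.4 with IL-27. The STAT3-deficient arrays read 467.6, 902.6 and 774.6 in medium, 4465.5, 3952.6 and 4242.5 with IL-6, and 5431.4, 5308.4 and 5511.2 with IL-27. The WT arrays in medium spread widely, array 1 overlapping the IL-6 arrays, whereas the 6 cytokine arrays of STAT3-deficient cells lay above every other array. IL-27 raised Ifit1 in WT cells by 2.48 ± 0.36 (5.59-fold, adjusted p = 0.000147), and IL-6 gave 1.09 ± 0.36 (adjusted p = 0.075). That IL-6 value was 1.58 without WT medium array 1 (adjusted p = 0.00387) and 1.41 without WT IL-6 array 3 (adjusted p = 0.0289), and its adjusted p ranged from 0.00387 to 0.348 over the alternatives. In STAT3-deficient cells the rise was 2.67 ± 0.36 with IL-6 (6.35-fold, adjusted p = 8.44e-05) and 3.02 ± 0.36 with IL-27 (8.14-fold, adjusted p = 1.13e-05).

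Ifit3, the direct neighbour of Ifit2 on chromosome 19, was likewise lowest in WT cells in medium and highest in STAT3-deficient cells with IL-27. Its signal was 424.7, 259.6 and 181.7 in WT cells in medium, 811.2, 667 and 464.5 with IL-6, and 2328.8, 1461.7 and 1644.9 with IL-27. The signal in STAT3-deficient cells was 722.8, 841.6 and 837.6 in medium, 5759.6, 4029.6 and 4466.6 with IL-6, and 6033, 5421.3 and 7292.3 with IL-27. The 3 WT groups did not overlap each other, and STAT3-deficient cells in medium overlapped WT cells with IL-6. IL-6 raised Ifit3 in WT cells by 1.06 ± 0.23 (2.08-fold, adjusted p = 0.00456) and IL-27 by 2.44 ± 0.23 (5.41-fold, adjusted p = 5.68e-07). In STAT3-deficient cells the rises were 2.60 ± 0.23 (6.04-fold, adjusted p = 3.18e-07) and 2.98 ± 0.23 (7.89-fold, adjusted p = 2.73e-08).

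Ifit2, which forms complexes with the other IFIT proteins, had the smallest rises of the 3. Its signal was 1619.6, 1389.1 and 1657.5 in WT cells in medium, 1307.3, 1291.2 and 1323.2 with IL-6, and 2243.4, 2255.3 and 2606.5 with IL-27. In STAT3-deficient cells it was 1903.7, 1394.8 and 1385.8 in medium, 3561.6, 2610.7 and 2687 with IL-6, and 3741.3, 3264.7 and 3207.8 with IL-27. All 3 WT IL-6 arrays lay below the WT arrays in medium, and this difference was not called. With IL-6 the change was -0.22 ± 0.14 in WT cells (adjusted p = 0.443) and 0.89 ± 0.14 in STAT3-deficient cells (1.85-fold, adjusted p = 0.000411). With IL-27 Ifit2 rose by 0.59 ± 0.14 in WT cells (1.51-fold, adjusted p = 0.0123) and by 1.09 ± 0.14 in STAT3-deficient cells (2.13-fold, adjusted p = 1.98e-05). The WT rise with IL-27 was 0.52 without WT medium array 2 (adjusted p = 0.0786), 0.52 without WT IL-27 array 3 (adjusted p = 0.0785) and 0.54 with array medians set equal (adjusted p = 0.139), the range over the alternatives being 0.000293 to 0.139. The promoters of Ifit1 and Ifit3 printed above hold 3 ISRE cores each and those of Ifit2 hold none. Whether such matches bear on the size of a rise was not tested.

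IL-27 against IL-6 in WT cells was 1.39 ± 0.36 for Ifit1 (2.63-fold, adjusted p = 0.0368), 1.38 ± 0.23 for Ifit3 (2.60-fold, adjusted p = 0.000942) and 0.81 ± 0.14 for Ifit2 (1.76-fold, adjusted p = 0.000954). The call for Ifit1 was lost under 10 of 32 alternatives, with changes of 1.07 to 1.48 and adjusted p of 0.0502 to 0.231 when WT medium array 2, WT IL-6 array 2 or 3, or any WT IL-27 array was left out. In STAT3-deficient cells the same differences were 0.36 ± 0.36, 0.38 ± 0.23 and 0.20 ± 0.14, none of them called. Tested directly, STAT3-deficient minus WT cells, the genotypes were not called different in IL-27 against IL-6 for any of these genes. The values were -1.04 ± 0.51, -0.99 ± 0.32 and -0.61 ± 0.19 in the same order (adjusted p = 0.634, 0.212 and 0.186).

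Rsad2 encodes viperin, an enzyme that makes a chain-terminating nucleotide from CTP. Its probe set with the highest mean read 281.4, 204.5 and 226.6 in WT cells in medium, 615.5, 334.3 and 334.1 with IL-6, and 777.6, 562.4 and 451.9 with IL-27. The STAT3-deficient arrays read 427.9, 600.2 and 768.7 in medium, 1453.1, 1565.2 and 2173.6 with IL-6, and 974.4, 1346 and 2209.6 with IL-27. Array 3 was the highest of its group in all 3 STAT3-deficient groups and array 1 in all 3 WT groups, while the cytokine arrays of STAT3-deficient cells lay above all other arrays. IL-6 gave 0.67 ± 0.30 in WT cells (adjusted p = 0.236) and raised Rsad2 by 1.61 ± 0.30 in STAT3-deficient cells (3.05-fold, adjusted p = 0.00354). With replicate numbers fitted as a block within genotype, the WT change was called (adjusted p = 0.00407).

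With IL-27, Rsad2 rose by 1.11 ± 0.30 in WT cells (2.16-fold, adjusted p = 0.0387) and by 1.36 ± 0.30 in STAT3-deficient cells (2.56-fold, adjusted p = 0.00903). The WT call was lost under 8 of 32 alternatives, with changes of 0.92 to 1.23 and adjusted p of 0.0584 to 0.166 when any WT medium array, or WT IL-27 array 1 or 2, was left out, and 0.72 (adjusted p = 0.257) with the mean of the 3 probe sets. The STAT3-deficient value was 1.09 without STAT3-deficient medium array 1 (adjusted p = 0.0685, range 9.53e-06 to 0.0685). The 3 probe sets differed: 1421009_at gave 0.13 ± 0.30 with IL-27 in WT cells (adjusted p = 0.917), and 1421008_at gave 0.91 ± 0.34 (adjusted p = 0.206). Both rose with IL-6 in STAT3-deficient cells, by 1.36 ± 0.30 (adjusted p = 0.0193) and 1.60 ± 0.34 (adjusted p = 0.0167). With IL-27 in those cells they gave 1.06 ± 0.30 (adjusted p = 0.0509) and 1.09 ± 0.34 (adjusted p = 0.0936), neither called. Cmpk2, a nucleotide kinase gene that is the direct neighbour of Rsad2 on chromosome 12, had changes of 0.37 ± 0.31 with IL-6 and 1.11 ± 0.31 with IL-27 in WT cells (adjusted p = 0.627 and 0.046). It rose by 1.96 ± 0.31 and 1.68 ± 0.31 in STAT3-deficient cells (adjusted p = 0.000592 and 0.00176).

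Mx1 encodes a dynamin-like GTPase that blocks influenza virus, and the gene is defective in many inbred mouse strains, C57BL/6 among them; RefSeq lists it as a transcribed pseudogene. Its signal was low, at 41.8, 46.6 and 69.6 in WT cells in medium, 43.5, 9.7 and 8 with IL-6, and 72, 63.4 and 31.6 with IL-27. The signal in STAT3-deficient cells was 113.3, 60.2 and 52.6 in medium, 139.7, 151 and 169.2 with IL-6, and 104.7, 45.8 and 185 with IL-27. Every neighbouring pair of groups in the order of means overlapped, and no WT array lay above its own array's median. None of the 4 cytokine changes was called, from -0.83 ± 0.38 in WT cells with IL-6 (adjusted p = 0.256) to 0.98 ± 0.38 with IL-6 in STAT3-deficient cells (adjusted p = 0.426).

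Rtp4, a receptor transporter protein that restricts flaviviruses, had the largest IL-27 change of the 9 genes in both genotypes. Its signal was 1064.3, 564.6 and 490 in WT cells in medium, 6595.5, 4671.7 and 5150.4 with IL-6, and 12449.2, 10790.6 and 10888.8 with IL-27. In STAT3-deficient cells it was 569.7, 898.3 and 1099 in medium, 13698.1, 10409.5 and 12198.3 with IL-6, and 13146.8, 12964.4 and 13016.7 with IL-27. The medium groups overlapped each other, and the STAT3-deficient IL-6 and IL-27 groups overlapped each other. In WT cells Rtp4 rose by 2.87 ± 0.23 with IL-6 (7.32-fold, adjusted p = 6.59e-08) and by 3.88 ± 0.23 with IL-27 (14.8-fold, adjusted p = 7.03e-10). In STAT3-deficient cells the rises were 3.93 ± 0.23 (15.3-fold, adjusted p = 8.47e-10) and 3.99 ± 0.23 (15.9-fold, adjusted p = 3.56e-10). A dimmer Rtp4 probe set, 1449143_at, gave rises of 1.36 ± 0.29 and 2.79 ± 0.29 in WT cells and 2.29 ± 0.29 and 2.39 ± 0.29 in STAT3-deficient cells with IL-6 and IL-27. IL-27 exceeded IL-6 in WT cells by 1.01 ± 0.23 (2.01-fold, adjusted p = 0.0152), a call lost with array medians set equal and without WT IL-6 array 2 or 3 or WT IL-27 array 1, where the values were 0.90 to 1.04 and the adjusted p 0.0547 to 0.0985.

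Bst2 encodes tetherin, which holds budding virus particles at the cell surface. Its signal was 320.6, 225.9 and 325.4 in WT cells in medium, 757.8, 423.4 and 404.2 with IL-6, and 1478.3, 1016.3 and 835.9 with IL-27. The STAT3-deficient arrays read 359.9, 530.9 and 514 in medium, 2169, 1033.7 and 862.8 with IL-6, and 1924.1, 1069 and 1022.9 with IL-27. Array 1 was the highest in all 4 cytokine groups, and WT cells with IL-27 overlapped both STAT3-deficient cytokine groups. IL-27 raised Bst2 by 1.71 ± 0.32 in WT cells (3.27-fold, adjusted p = 0.00191) and by 1.57 ± 0.32 in STAT3-deficient cells (2.97-fold, adjusted p = 0.00422). IL-6 gave 0.72 ± 0.32 in WT cells (adjusted p = 0.228) and 1.52 ± 0.32 in STAT3-deficient cells (2.86-fold, adjusted p = 0.0107). The latter was 1.29 without STAT3-deficient medium array 1 (adjusted p = 0.0905) and 1.14 without STAT3-deficient IL-6 array 1 (adjusted p = 0.0813), and the adjusted p ranged from 0.0024 to 0.0905.

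Ifi35 encodes a leucine zipper protein that pairs with Nmi in innate signalling. Its signal was 5415.6, 5058.2 and 5788.4 in WT cells in medium, 12090.7, 9334.1 and 9170.1 with IL-6, and 16272.2, 13665.8 and 14370.7 with IL-27. The signal in STAT3-deficient cells was 3941, 4434.2 and 3759.1 in medium, 13121.5, 12177.4 and 11624.9 with IL-6, and 12252.1, 12237.5 and 11146.1 with IL-27. Medium groups were lowest, WT cells with IL-6 came next without overlap, and neighbours among the 3 remaining groups overlapped. Ifi35 rose by 0.87 ± 0.10 with IL-6 (1.82-fold, adjusted p = 6.45e-06) and 1.37 ± 0.10 with IL-27 (2.58-fold, adjusted p = 1.85e-08) in WT cells. It rose by 1.53 ± 0.10 (2.88-fold, adjusted p = 4.61e-09) and 1.42 ± 0.10 (2.68-fold, adjusted p = 8.9e-09) in STAT3-deficient cells. The 2 other Ifi35 probe sets, 1424617_at and 1459151_x_at, were also called higher in all 4 comparisons, with changes of 0.57 to 1.41. IL-27 exceeded IL-6 in WT cells by 0.50 ± 0.10 (adjusted p = 0.00566), which was lost with array medians set equal (adjusted p = 0.192, range 0.000565 to 0.192). Nmi rose in the same 4 comparisons, by 0.44 ± 0.10 and 0.82 ± 0.10 in WT and 0.78 ± 0.10 and 1.03 ± 0.10 in STAT3-deficient cells. Ifi35 lies on chromosome 11, as does Stat3, with 28 protein-coding genes between them.

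Plscr1, a phospholipid scramblase gene inducible by interferon, had another pattern. The probe set with the highest mean read 5, 8.4 and 8.8 in WT cells in medium, 297, 280.7 and 364.1 with IL-6, and 57.8, 5.3 and 33.7 with IL-27. In STAT3-deficient cells it was 57.2, 55.3 and 49.9 in medium, 50.8, 85.1 and 109.1 with IL-6, and 61.1, 64.6 and 74 with IL-27. Only the 3 WT IL-6 arrays lay above their array's median, and no other array overlapped them. The size of a change from so low a level is set partly by the added constant: the IL-6 change in WT cells was 3.79 with a constant of 16 and 2.45 with 64, and no fold is given. IL-6 raised Plscr1 in WT cells by 3.16 ± 0.34 (adjusted p = 2.44e-06), whereas IL-27 gave 0.66 ± 0.34 (adjusted p = 0.39), and IL-27 against IL-6 was -2.50 ± 0.34 (adjusted p = 0.000118). In STAT3-deficient cells the changes were 0.50 ± 0.34 with IL-6 (adjusted p = 0.805) and 0.31 ± 0.34 with IL-27 (adjusted p = 0.748).

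The probe sets of Plscr1 did not all share this pattern. The suffix of 1453181_x_at marks a set with probes that can match other transcripts. A second set, 1429527_a_at, read 3.9, 16.4 and 18.1 in WT cells in medium and 161.7, 173.1 and 203.5 with IL-6, and rose there by 2.30 ± 0.39 (adjusted p = 0.000516). In all other groups that second set read 5.4 to 83.1. The third, 1457824_at, did not pass the filter and read 7.7 to 83.4 over all 18 arrays, with 25.6, 38.3 and 30.1 in WT cells with IL-6.

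**Figure D3:**
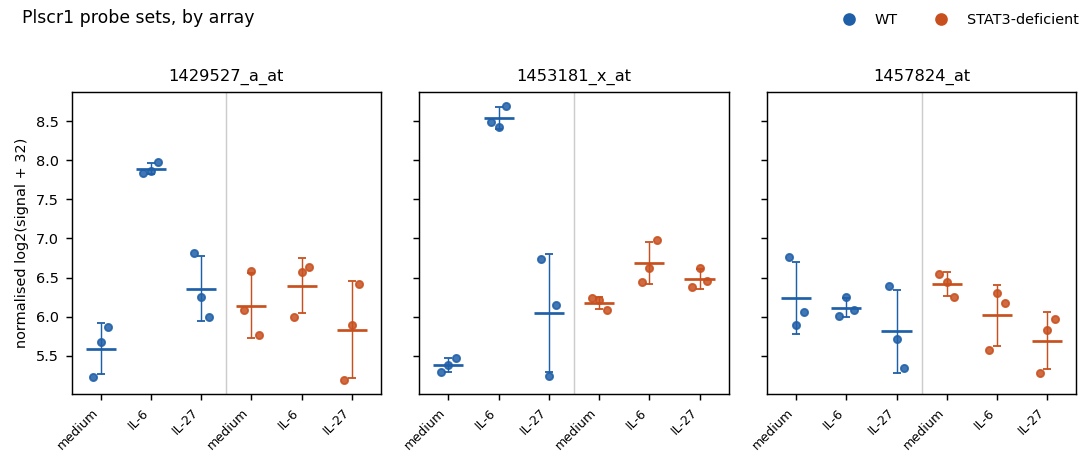
Normalised log2(signal + 32) of the 3 Plscr1 probe sets in the 6 groups, WT in blue and STAT3-deficient in orange; points are arrays, lines are group means and error bars are SD (n = 3). The WT IL-6 arrays stand above all others in 1429527_a_at and 1453181_x_at and not in 1457824_at.

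STAT3-deficient and WT cells were then compared within each treatment. In medium, 2 of the 9 genes were called higher in STAT3-deficient cells (background 13.8%), Ifit3 by 1.31 ± 0.23 (2.47-fold, adjusted p = 0.000738) and Rsad2 by 0.98 ± 0.30 (1.97-fold, adjusted p = 0.023). The Rsad2 value was 0.58 with the mean of its probe sets (adjusted p = 0.169) and 0.66 with array medians set equal (adjusted p = 0.0705). Leaving out WT medium array 2 or 3, or STAT3-deficient medium array 2 or 3, gave Rsad2 values of 0.75 to 0.95 with adjusted p of 0.0534 to 0.0945. Ifit1 stood at 0.65 ± 0.36 (adjusted p = 0.191), and at 1.13 without WT medium array 1 (adjusted p = 0.0238, range 0.0238 to 0.663). Ifit2 turned from 0.09 ± 0.14 (adjusted p = 0.658) to -0.55 with array medians set equal (adjusted p = 0.0171). Ifi35, at -0.21 ± 0.10 (adjusted p = 0.128), was called lower with the deposited scaling (-0.42, adjusted p = 0.00548) and with array medians set equal (-0.96, adjusted p = 0.000165). With the mean of its probe sets Ifi35 gave -0.0026 (adjusted p = 0.989). Its probe set 1459151_x_at had the higher mean in STAT3-deficient cells, 10.747 against 10.508. Plscr1 stood at 0.80 ± 0.34 (adjusted p = 0.0895), and at 1.13 with the deposited scaling (adjusted p = 0.0165, range 0.0165 to 0.252).

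With IL-6, 8 of the 9 genes were higher in STAT3-deficient cells (background 12.8% higher) and Plscr1 was lower (background 10.9% lower). The differences were 2.84 ± 0.23 for Ifit3 (7.18-fold, adjusted p = 7.56e-08), 2.23 ± 0.36 for Ifit1 (4.68-fold, adjusted p = 0.000189), 1.92 ± 0.30 for Rsad2 (3.78-fold, adjusted p = 0.000135), 1.64 ± 0.38 for Mx1 (adjusted p = 0.00421) and 1.31 ± 0.23 for Rtp4 (2.48-fold, adjusted p = 0.000421). The Mx1 value is against WT arrays that all lay below their array's median, and Mx1 was tested only because STAT3-deficient arrays passed the filter, so its call adds nothing to the count. Nor does the call of Plscr1, which was tested only because the WT IL-6 arrays passed the filter. For Ifit2 it was 1.20 ± 0.14 (2.29-fold, adjusted p = 3.76e-06), and for Plscr1 -1.86 ± 0.34 (adjusted p = 0.000617). Bst2 stood at 1.18 ± 0.32 (adjusted p = 0.0108), at 1.03 without WT IL-6 array 3 (adjusted p = 0.052), at 0.81 without STAT3-deficient IL-6 array 1 (adjusted p = 0.0583) and at 0.93 with array medians set equal (adjusted p = 0.0538, range 0.00344 to 0.0583). Ifi35 stood at 0.45 ± 0.10 (adjusted p = 0.00345), at 0.28 with the deposited scaling (adjusted p = 0.0547) and at -0.04 with array medians set equal (adjusted p = 0.894).

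With IL-27, 4 of the 9 genes were higher in STAT3-deficient cells (background 9.62%): Ifit3 by 1.85 ± 0.23 (adjusted p = 4.77e-05), Rsad2 by 1.23 ± 0.30 (adjusted p = 0.01), Ifit1 by 1.19 ± 0.36 (adjusted p = 0.0308) and Ifit2 by 0.59 ± 0.14 (adjusted p = 0.00724). Ifit1 was 1.10 to 1.23 with adjusted p of 0.0622 to 0.0985 without WT IL-27 array 2 or 3 or any STAT3-deficient IL-27 array, and 0.81 with array medians set equal (adjusted p = 0.149). Under that scaling Ifit2 was 0.22 (adjusted p = 0.409). Rsad2 was 0.89 without STAT3-deficient IL-27 array 3 (adjusted p = 0.0503). Rtp4, Bst2, Mx1, Plscr1 and Ifi35 ranged from -0.16 to 0.45, none of them called. Ifi35 was called lower with the deposited scaling (-0.31, adjusted p = 0.0457) and with array medians set equal (-0.61, adjusted p = 0.0166), its range of adjusted p being 0.0166 to 0.665. The mean of its probe sets gave 0.082 (adjusted p = 0.665).

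The difference between genotypes in the response itself, the change in STAT3-deficient cells minus that in WT cells, was tested as an interaction term. For IL-6 it was called higher for 3 of the 9 genes (background 1.83% higher) and lower for Plscr1 (1 gene, background 1.25% lower). The Plscr1 call uses the WT IL-6 arrays through which the gene passed the filter, so it adds nothing to the count. It was 1.54 ± 0.32 for Ifit3 (adjusted p = 0.00952), 1.11 ± 0.19 for Ifit2 (adjusted p = 0.00198), 0.66 ± 0.14 for Ifi35 (adjusted p = 0.0115) and -2.65 ± 0.48 for Plscr1 (adjusted p = 0.00282). Ifi35 gave 0.57 with the mean of its probe sets (adjusted p = 0.0563, range 0.00125 to 0.0563), and the second Plscr1 probe set gave -2.05 ± 0.55 (adjusted p = 0.0542).

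The other 5 genes had positive IL-6 interaction values that were not called. They were 1.81 ± 0.54 for Mx1 (adjusted p = 0.0857), 1.58 ± 0.51 for Ifit1 (adjusted p = 0.123), 1.06 ± 0.33 for Rtp4 (adjusted p = 0.1), 0.94 ± 0.42 for Rsad2 (adjusted p = 0.358) and 0.80 ± 0.45 for Bst2 (adjusted p = 0.512). Leaving out WT medium array 3 gave 2.00 for Ifit1 (adjusted p = 0.023) and 1.26 for Rtp4 (adjusted p = 0.0409). Without WT IL-6 array 1 Ifit1 was 1.95 (adjusted p = 0.0384) and Mx1 2.16 (adjusted p = 0.0327), and without STAT3-deficient medium array 3 Rtp4 was 1.29 (adjusted p = 0.0301). Mx1 passed the filter only through cytokine-treated STAT3-deficient arrays, 2 of them with IL-6. These values use the same IL-6 arrays, so the Mx1 call adds nothing. With replicate numbers, which did not meet the rule for pairing, fitted as a block within genotype, Ifit1, Rsad2 and Rtp4 were called. Their adjusted p was 0.00903, 0.00903 and 0.0289. The median interaction of the 9 genes, with Mx1 and Plscr1 included, was 1.06, beside 0.01 over all genes.

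For IL-27 the interaction was called for none of the 9 genes, where 0.0167% of all genes were called in either direction, and limma gave 1 unadjusted p under 0.05 among the 9, for Ifit2 at 0.50 ± 0.19. The values ran from -0.35 ± 0.48 for Plscr1 to 0.54 ± 0.32 for Ifit3. The genotype difference in IL-27 against IL-6 was called higher for Plscr1 (background 0.652%), at 2.30 ± 0.48 (adjusted p = 0.0176), and lower for Ifi35 (background 0.585%), at -0.61 ± 0.14 (adjusted p = 0.041). Its values were below 0 for 8 of the 9 genes, with a median of -0.94. Limma gave an unadjusted p under 0.05 for 6 of the 9, Mx1 and Plscr1 among them. The Plscr1 value was 2.22 without WT IL-6 array 3 (adjusted p = 0.0664) and 1.64 with the mean of its probe sets (adjusted p = 0.161, range 0.00468 to 0.161). It also uses the WT IL-6 arrays through which Plscr1 passed the filter. The Ifi35 call was lost under 22 of 32 alternatives, including any WT IL-27 array left out (adjusted p = 0.0582 to 0.117), and its adjusted p reached 0.736 with array medians set equal.

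**Figure D4:**
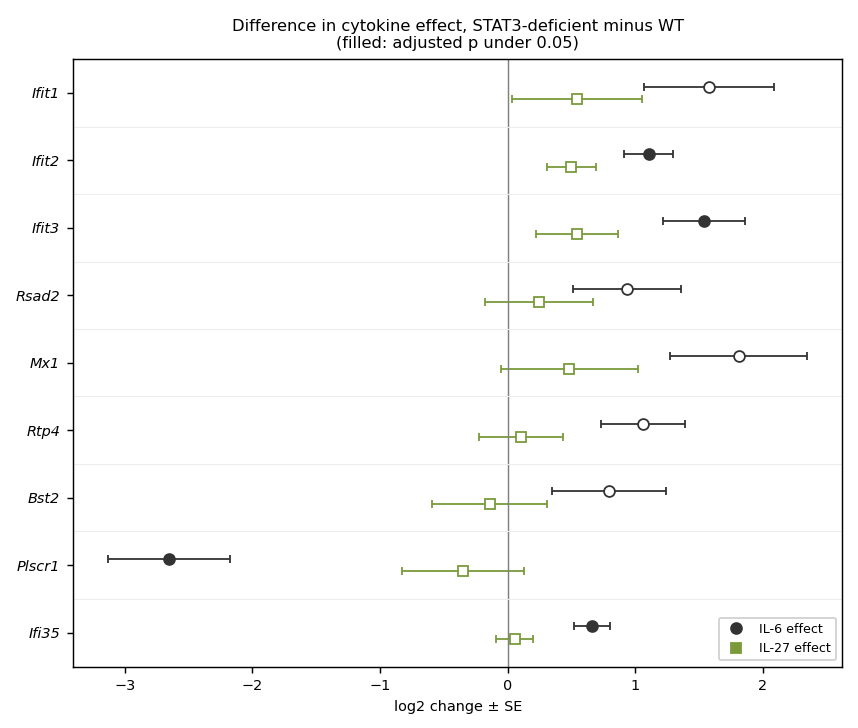
Change in STAT3-deficient minus change in WT cells for IL-6 (circles) and IL-27 (squares), in log2 units with SE; filled symbols have an adjusted p under 0.05. The IL-6 values are above 0 for 8 of the 9 genes and at -2.65 for Plscr1, and the IL-27 values lie between -0.35 and 0.54.

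Across the 18 arrays the genes varied together to different degrees. The correlation of each gene with the mean of the other measured members, each scaled to its own mean and SD, was 0.953 for Ifit1, 0.949 for Ifit3, 0.903 for Bst2, 0.902 for Rtp4, 0.861 for Rsad2, 0.839 for Ifi35 and 0.793 for Ifit2. It was 0.477 for Mx1 and 0.0589 for Plscr1. These values describe 18 arrays in 6 groups and hold the treatments themselves. Among all other tested genes, the 8 whose pattern was most like the members' mean were Oas3 (r = 0.972), Trim30d (0.968), Ifih1 (0.967), Irf7 (0.967), Samd9l (0.965), Parp12 (0.961), Lgals3bp (0.959) and Nlrc5 (0.959).

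Of 46 other antiviral genes listed, 39 were tested. In WT cells 21 were higher and 1 lower with IL-6, and 28 higher and 0 lower with IL-27, with median changes of 0.59 and 1.11. The largest called IL-27 changes were 4.54 ± 0.97 for Oasl2, an oligoadenylate synthetase-like gene, 3.82 ± 0.21 for the nucleic acid sensor Zbp1, and 2.99 ± 0.13 and 2.93 ± 0.12 for the ADP-ribosyltransferase genes Parp14 and Parp9. In STAT3-deficient cells 29 were higher with IL-6 and 31 with IL-27, none lower, with median changes of 1.45 and 1.68. The IL-6 interaction was called higher for 11 of the 39 and lower for 0, led by Xaf1 at 2.66 ± 0.21 and Ifit1bl1, within the IFIT cluster, at 1.84 ± 0.19. Like Ifit2, Ifit1bl1 was not called for IL-6 in WT (-0.26 ± 0.13, adjusted p = 0.336) and rose by 1.58 ± 0.13 with IL-6 in STAT3-deficient cells.

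Genes upstream of the effectors were read the same way. Of 9 interferon ligands and receptors 5 were tested, and the rest of that list was not. With IL-6 in WT cells 1 of the 5 was called higher and 1 lower. The type I interferon gene Ifna1 was called in none of the cytokine comparisons. Its values against medium ran from -0.39 ± 0.53 to 1.08 ± 0.53, an SE too wide to show that it did not change. The receptor chain Ifnar2 rose by 0.89 ± 0.19 with IL-27 in WT cells. Of 6 listed kinases and ISGF3 subunits 5 were tested. In WT cells 2 were called higher and 2 lower with IL-6, and 2 higher and 1 lower with IL-27. In STAT3-deficient cells 2 were higher and 0 lower with each cytokine. Stat2, a subunit of ISGF3, rose by 1.06 ± 0.17 with IL-6 and 2.11 ± 0.17 with IL-27 in WT cells, and by 2.08 ± 0.17 and 2.37 ± 0.17 in STAT3-deficient cells, with an IL-6 interaction of 1.02 ± 0.25 (adjusted p = 0.0241). Irf9, which gives ISGF3 its DNA binding, rose by 1.40 ± 0.09, 2.01 ± 0.09, 1.65 ± 0.09 and 1.63 ± 0.09 in the same order, with an interaction of 0.24 ± 0.13 (adjusted p = 0.466). Among 6 interferon regulatory factors, 4 were called higher with each cytokine in each genotype, and the IL-6 interaction was called for Irf7, the amplifier of interferon responses, at 1.29 ± 0.21 and Irf1 at 0.79 ± 0.13.

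Feedback inhibitors fell on different sides. Usp18, which blocks the type I interferon receptor, stood at 0.19 ± 0.27 after IL-6 in WT cells (adjusted p = 0.811) and rose by 2.49 ± 0.27 in STAT3-deficient cells, an interaction of 2.30 ± 0.38 (adjusted p = 0.00122) in the direction of Ifit2 and Ifit3. Socs3, which blocks gp130, rose by 4.18 ± 0.15 with IL-6 in WT cells and by 0.77 ± 0.15 in STAT3-deficient cells, an interaction of -3.41 ± 0.21 (adjusted p = 1.36e-08) in the direction of Plscr1. Socs1 rose by 1.96 ± 0.20 and 1.90 ± 0.20, with an interaction of -0.06 ± 0.29 (adjusted p = 0.962).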

How the data were processed

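The deposited intensity values are a linear signal per probe set on Affymetrix Mouse Genome 430 2.0 arrays, made by the authors with GCOS per the submitters' processing notes (version and summarisation not stated there). Trimming 2% at each end gave a mean of 500 on all 18 arrays. From the deposited signals log2(signal + 32) was computed and quantile-normalised, because array medians differed by 1.82-fold. Probe sets above their array's median on at least 3 arrays were kept (26860), and the probe set with the highest mean stood for its gene. The added constant shrinks changes of dim genes such as Mx1 and Plscr1. A model with 6 group means was fitted with limma 3.58.1 (R 4.3.3; 12 residual and 6.25 prior degrees of freedom, variance trend), tests were two-sided over 12 comparisons, and the code was tested on simulated data. The number of arrays limits precision; the median SE was 0.185.

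Gene symbols came from the platform annotation and promoters and gene order from RefSeq GRCm38.p6. The members and gene lists were chosen with earlier results of these data known. Named are all members, Stat3, Stat2, Irf9, Irf7, Irf1, Nmi and Cmpk2, up to 4 called genes per list and comparison (those of largest change) and the 8 genes of most similar pattern; Ifna1 was named after its values were seen. Alternatives were other scalings, constants, filters, probe set rules, variance models, array subsets and replicate blocks. Replicate numbers did not meet the rule for pairing and were left out of the fit.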

Additional observations from a re-analysis of the deposited data

Results flagged for a closer look

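Among the genes whose IL-6 response differed between genotypes by the interaction test, Ifit2 stood at 1.11, Ifit3 at 1.54 and Ifi35 at 0.66, all larger in STAT3-deficient cells. Plscr1 stood at -2.65, larger in WT cells. In the genotype difference of IL-27 against IL-6, Plscr1 stood at 2.30 and Ifi35 at -0.61; the tests and limits of each are given with the results above.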

How the results depend on the processing

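Of 52 calls over 108 pairs of gene and comparison, 36 kept their direction and call under every alternative that could be run (32, or 31 for Mx1 and Plscr1, which a filter on 6 arrays removed), and 16 were lost in at least 1. The direction reversed in 2 pairs, both with array medians set equal: Ifit2 for STAT3-deficient against WT cells in medium (-0.546) and Ifi35 with IL-6 (-0.0397). In 16 pairs a value called in neither setting changed sign. The cause of these shifts was not tested.

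Counts that moved by over 1.5 times were as follows. With array medians set equal, IL-27 against IL-6 in WT cells gave 2 genes higher, STAT3-deficient against WT gave 1 higher and 2 lower in medium and 2 higher and 1 lower with IL-27, and the genotype difference in IL-27 against IL-6 gave 0 lower. The deposited scaling gave 1 lower in medium, 1 lower with IL-27 and 0 lower for the genotype difference in IL-27 against IL-6. The filter on 6 arrays, which removes Plscr1, gave 0 lower for IL-27 against IL-6 in WT cells, 0 lower for the genotypes with IL-6, 0 lower for the IL-6 interaction and 0 higher for the difference in IL-27 against IL-6. The mean of probe sets gave 1 higher in medium and 0 higher for that last difference. For the same difference, no filter, probe sets as features, no variance trend, array weights and leaving out the STAT3-deficient arrays numbered 3 each gave 0 lower, and the last also 0 higher.

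Leaving out 1 array gave 4 to 5 genes raised by IL-6 and 5 to 7 by IL-27 in WT cells, and 6 to 7 by each in STAT3-deficient cells. IL-27 against IL-6 in WT cells gave 3 to 5 higher. STAT3-deficient against WT cells gave 1 to 3 higher in medium, 7 to 8 with IL-6 and 2 to 4 with IL-27. The IL-6 interaction gave 3 to 5 higher, and the difference in IL-27 against IL-6 gave 0 to 1 higher and 0 to 1 lower.

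Samples with the same replicate number correlated above 0.1 in 6 of 9 pairs in WT and 5 of 9 in STAT3-deficient cells, and samples with different numbers in 0 of 18 and 6 of 18. Not every same-numbered pair passed 0.1, so the numbers were not taken as pairing, although in WT cells only same-numbered arrays did. With the replicate block within genotype the IL-6 interaction was called higher for 6 genes, among them Ifit1 (adjusted p = 0.00903), Rsad2 (0.00903) and Rtp4 (0.0289), and the difference in IL-27 against IL-6 lower for 3. Under that block IL-6 in WT cells was also called for Ifit1 (0.00541) and Rsad2 (0.00407).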
